A study of Mus musculus with 5 samples.

Results

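The 34 genes described here are endothelial and blood-vessel genes, among them factors and markers of the vessel lining and ligands that act on it. They were chosen by symbol, and their peaks are those that carry the symbol in the deposited peak lists. All 34 are among the 21924 protein-coding symbols of the gene annotation. They fall into 9 transcription factors and cofactors, 11 receptors, 6 junction and surface proteins, 7 ligands and secreted proteins, and 1 enzyme.

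ChIP-seq enriches DNA that an antibody pulls down with its target protein, and a peak marks a stretch where the reads gathered. Cells were mouse 46C embryonic stem cells taken through cardiac differentiation to the cardiac progenitor (CP) stage, in a medium that contained VEGF among other factors for the control and the knockout line alike. The homeobox and zinc finger protein ZHX1 and the RNA-binding protein hnRNPA1 were assayed in 46C-Ctrl cells, and hnRNPA1 also in Zhx1-KO cells, made with CRISPR/Cas9 guides at the start and stop sites of Zhx1. Each of the 3 lists comes from 1 library, and the 2 input samples had no file used here. How many knockout clones entered the library is not given in the sources used here.

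The ZHX1 list held 23244 peaks, the control hnRNPA1 list 14662 and the Zhx1-KO hnRNPA1 list 51545. No list has a score or read count, so the depth is unknown, no difference between the 2 lines could be tested, and the Zhx1-KO list is 3.52 times as long as the control list from the same antibody. An entry missing from a list is therefore no sign that the protein was missing from the DNA. The peaks do not measure expression, so they can show neither how many vessel cells the cultures held nor whether the knockout worked. Zhx1 itself was named by 1 ZHX1 peak, by no control hnRNPA1 peak and by 1 hnRNPA1 peak in Zhx1-KO. Intervals are Wilson 95% intervals, the upper limit beside a count of 0 is 3 counts of the total, and both cover counting error only.

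Blood vessels form when mesoderm cells that carry the VEGF receptor KDR are turned towards the endothelial fate by ETS factors, with ETV2 acting early and ERG and FLI1 holding the state later. TAL1 and LMO2 work in the same cells and in blood progenitors, and SOX7 and SOX18 act in early vessels, including the step to lymphatic vessels. The mature layer is held together by VE-cadherin and claudin 5, and VEGF and angiopoietin ligands control its growth and quiescence. Heart and vessel cells share mesoderm progenitors, which is why vessel genes are of interest at a cardiac progenitor stage.

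Peaks with DNA sequence that bears on these genes are shown first. They are the single-copy places where member peaks of different lists overlapped, at Tal1 and Egfl7, followed by peaks close to the 5' ends of Vegfa, Aplnr and Cdh5. Each is given 5' to 3' on the plus strand of GRCm38, whole or as the central 300 bases. Capitals mark TAGGG, which is the hnRNPA1 core written as DNA, CCAAT, the core NF-Y site, and AGGAAG or CGGAAG, the ETS core, each also as its reverse complement.
Tal1, ZHX1 peak, chr4:115056954-115057253: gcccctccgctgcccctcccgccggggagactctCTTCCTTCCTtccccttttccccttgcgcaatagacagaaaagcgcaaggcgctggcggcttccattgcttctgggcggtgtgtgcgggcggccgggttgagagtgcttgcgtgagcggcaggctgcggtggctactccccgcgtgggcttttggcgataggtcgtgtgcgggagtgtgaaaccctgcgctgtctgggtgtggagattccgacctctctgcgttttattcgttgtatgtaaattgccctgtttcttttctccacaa
Tal1, Zhx1-KO hnRNPA1 peak, chr4:115056846-115057069: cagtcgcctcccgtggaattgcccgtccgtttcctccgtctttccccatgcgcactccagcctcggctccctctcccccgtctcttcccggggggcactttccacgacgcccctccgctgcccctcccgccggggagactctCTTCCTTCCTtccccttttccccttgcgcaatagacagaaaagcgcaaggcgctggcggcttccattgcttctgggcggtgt
Egfl7, control hnRNPA1 peak, chr2:26577107-26577329: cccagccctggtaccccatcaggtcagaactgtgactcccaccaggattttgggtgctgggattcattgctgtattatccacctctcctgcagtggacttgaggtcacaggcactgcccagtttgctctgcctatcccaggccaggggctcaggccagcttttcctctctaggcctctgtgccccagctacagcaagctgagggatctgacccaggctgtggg
Egfl7, Zhx1-KO hnRNPA1 peak, chr2:26577295-26577594: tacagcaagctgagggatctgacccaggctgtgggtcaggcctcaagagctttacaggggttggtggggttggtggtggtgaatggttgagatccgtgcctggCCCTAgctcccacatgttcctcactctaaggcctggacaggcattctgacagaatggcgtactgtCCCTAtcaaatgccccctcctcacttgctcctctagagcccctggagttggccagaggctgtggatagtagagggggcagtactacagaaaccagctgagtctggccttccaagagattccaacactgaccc
Vegfa, ZHX1 peak, chr17:46032714-46033013: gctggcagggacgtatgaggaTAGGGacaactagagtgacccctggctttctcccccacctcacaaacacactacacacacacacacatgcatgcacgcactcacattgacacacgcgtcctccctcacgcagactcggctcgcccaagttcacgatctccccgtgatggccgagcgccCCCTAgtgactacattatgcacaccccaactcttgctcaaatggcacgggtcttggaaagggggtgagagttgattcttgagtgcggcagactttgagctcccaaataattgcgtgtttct
Aplnr, Zhx1-KO hnRNPA1 peak, chr2:85135069-85135300: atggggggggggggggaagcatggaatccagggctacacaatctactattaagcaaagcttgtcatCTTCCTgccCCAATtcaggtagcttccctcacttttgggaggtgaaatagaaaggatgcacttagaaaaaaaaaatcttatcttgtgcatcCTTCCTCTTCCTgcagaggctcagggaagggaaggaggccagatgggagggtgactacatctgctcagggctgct
Cdh5, ZHX1 peak, chr8:104102557-104102784: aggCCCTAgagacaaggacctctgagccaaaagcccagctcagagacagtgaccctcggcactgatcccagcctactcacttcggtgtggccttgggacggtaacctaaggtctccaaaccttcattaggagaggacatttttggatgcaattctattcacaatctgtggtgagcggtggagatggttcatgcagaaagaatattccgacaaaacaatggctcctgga

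The Tal1 pair lies in the first 2 kb of the gene, in single-copy sequence with 2 ETS cores that overlap each other, and both peaks contain them. The Egfl7 pair shares 43 bp just upstream of the gene. The control peak there has none of the 3 motifs, and the printed part of the Zhx1-KO peak has TAGGG 2 times as its reverse complement. The Aplnr peak has 3 ETS cores and 1 CCAAT, the Vegfa peak has 2 TAGGG and the Cdh5 peak 1 TAGGG. A match of such short letters is a description and not a bound site.

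Across the 34 genes, ZHX1 peaks named 22, control hnRNPA1 peaks named 17 and Zhx1-KO hnRNPA1 peaks named 26. That is 64.7% (95% interval 47.9 to 78.5), 50% (34.1 to 65.9) and 76.5% (60.0 to 87.6). Among all protein-coding symbols the shares were 40.5%, 31.2% and 57.7%, so more of the vessel genes than of all genes were named in each list. The number of peaks was 55, 31 and 98 in the same order.

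The stretch of genome from which a gene can collect names was also longer for these genes. A peak was named for the gene with the nearest transcription start in 55 of 55, 31 of 31 and 93 of 98 member peaks, so a gene far from its neighbours gathers more peaks. The stretch nearest to a member's start, called its territory here, had a median of 94.4 kb, against 42.3 kb for all protein-coding genes. Per Mb of territory the members held 10.9 ZHX1 peaks, against 8.53 per Mb of the whole genome. The control hnRNPA1 values were 6.16 and 5.38 per Mb and the Zhx1-KO values 19.5 and 18.9 per Mb. The territories of all protein-coding genes held 9.26, 5.84 and 20.5 peaks per Mb in the 3 lists. On this scale the members stood above all protein-coding genes for ZHX1 and slightly above for control hnRNPA1 (1.06 times), and below them for Zhx1-KO (0.951 times). The part of territory in the shares was not tested.

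**Figure D1:**
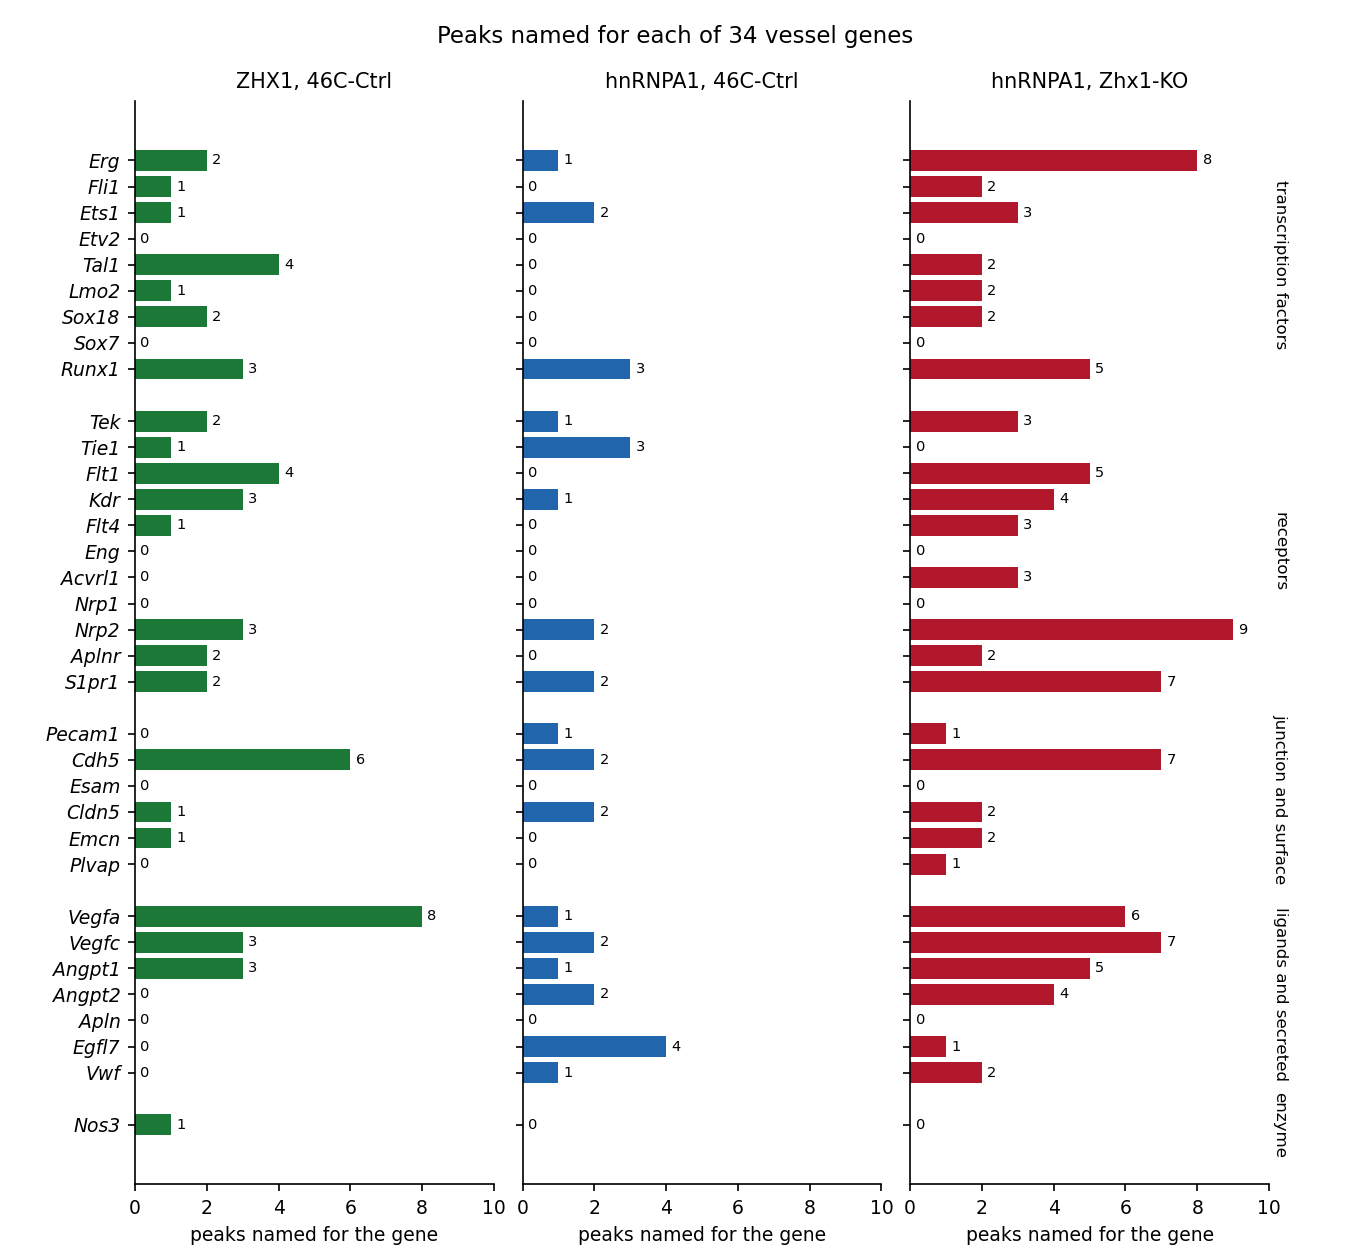
Number of peaks named for each of the 34 genes (horizontal axes) in the 3 lists, 1 library each, with genes grouped by role from top to bottom. Vegfa led the ZHX1 list with 8 peaks, Egfl7 the control hnRNPA1 list with 4 and Nrp2 the Zhx1-KO list with 9, and 6 genes were at 0 in all 3.

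The 9 transcription factors and cofactors were named by ZHX1 more often than by hnRNPA1 in control cells. ZHX1 peaks named 7 of the 9 (77.8%, 45.3 to 93.7) and control hnRNPA1 peaks 3 of the 9 (33.3%, 12.1 to 64.6), and these intervals overlap. All protein-coding symbols stood at 40.5% and 31.2%, so the hnRNPA1 share of the factors was close to that of all genes. Among 15 other vessel transcription factors both lists named 11. Zhx1-KO hnRNPA1 peaks named 7 of the 9. Tal1, whose product is a helix-loop-helix factor of blood and vessel progenitors, had 4 ZHX1 peaks, no control hnRNPA1 peak and 2 in Zhx1-KO. Its partner Lmo2, a bridging cofactor, had 1, 0 and 2 in the same order. Fli1, an ETS factor, also had 1, 0 and 2. Sox18, a SOX factor of early and lymphatic vessels, had 2, 0 and 2.

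Hence 4 of the 7 factors named by ZHX1 had no hnRNPA1 entry in control cells but had one in Zhx1-KO (57.1%). Of all protein-coding symbols named by ZHX1, 34.9% were in that class, and with each list reduced to its widest 14662 peaks, Zhx1-KO named 1 transcription factor. By gene body, only Tal1 of the 4 stayed in the class, with Fli1 and Lmo2 in Zhx1-KO alone and Sox18 in ZHX1 alone. The other 3 factors named by ZHX1 stood in all 3 lists. Erg, the ETS factor that maintains endothelial identity, had 2 ZHX1 peaks, 1 control hnRNPA1 peak and 8 in Zhx1-KO. Ets1 had 1, 2 and 3, and Runx1, which drives the step from endothelium to blood stem cells, had 3, 3 and 5. The 8 Zhx1-KO peaks of Erg included neighbouring intronic peaks in sequence of 2270, 2371.5, 4950.5 and 9455 copies. All 3 are long genes with wide territories, 285 kb for Erg, 224 kb for Ets1 and 443 kb for Runx1. Etv2, the early ETS factor with a territory of 12.1 kb, and Sox7, with 63.7 kb, were named in none of the 3 lists.

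The peaks at Tal1 were crowded at its 5' end (chr4:115056426-115071755, plus strand). The ZHX1 peak centres stood 0.149, 0.677, 2.10 and 7.24 kb into the gene, all in introns of annotated transcripts. Those within 2 kb of a start, beside the one printed, were chr4:115056462-115056689 and chr4:115058396-115058646. The hnRNPA1 peak of Zhx1-KO at chr4:115056846-115057069 was centred 0.531 kb into the gene and overlapped the printed ZHX1 peak by 129 bp. The other Zhx1-KO peak lay in an untranslated exon part 14 kb into the gene. Sox18 (chr2:181669836-181671640, minus strand) is a gene of 1.80 kb, and both of its ZHX1 peaks lay in coding sequence, at chr2:181670574-181670883 and chr2:181670051-181670369, while its Zhx1-KO hnRNPA1 peaks lay 24.1 and 25.7 kb from the start. Erg and Lmo2 had a Zhx1-KO peak each within 2 kb of the start of one of their transcripts. That of Erg, at chr16:95529243-95529466, was 57.2 kb from the gene's 5' end, and that of Lmo2, at chr2:103969556-103969822, was 11.7 kb from it.

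**Figure D2:**
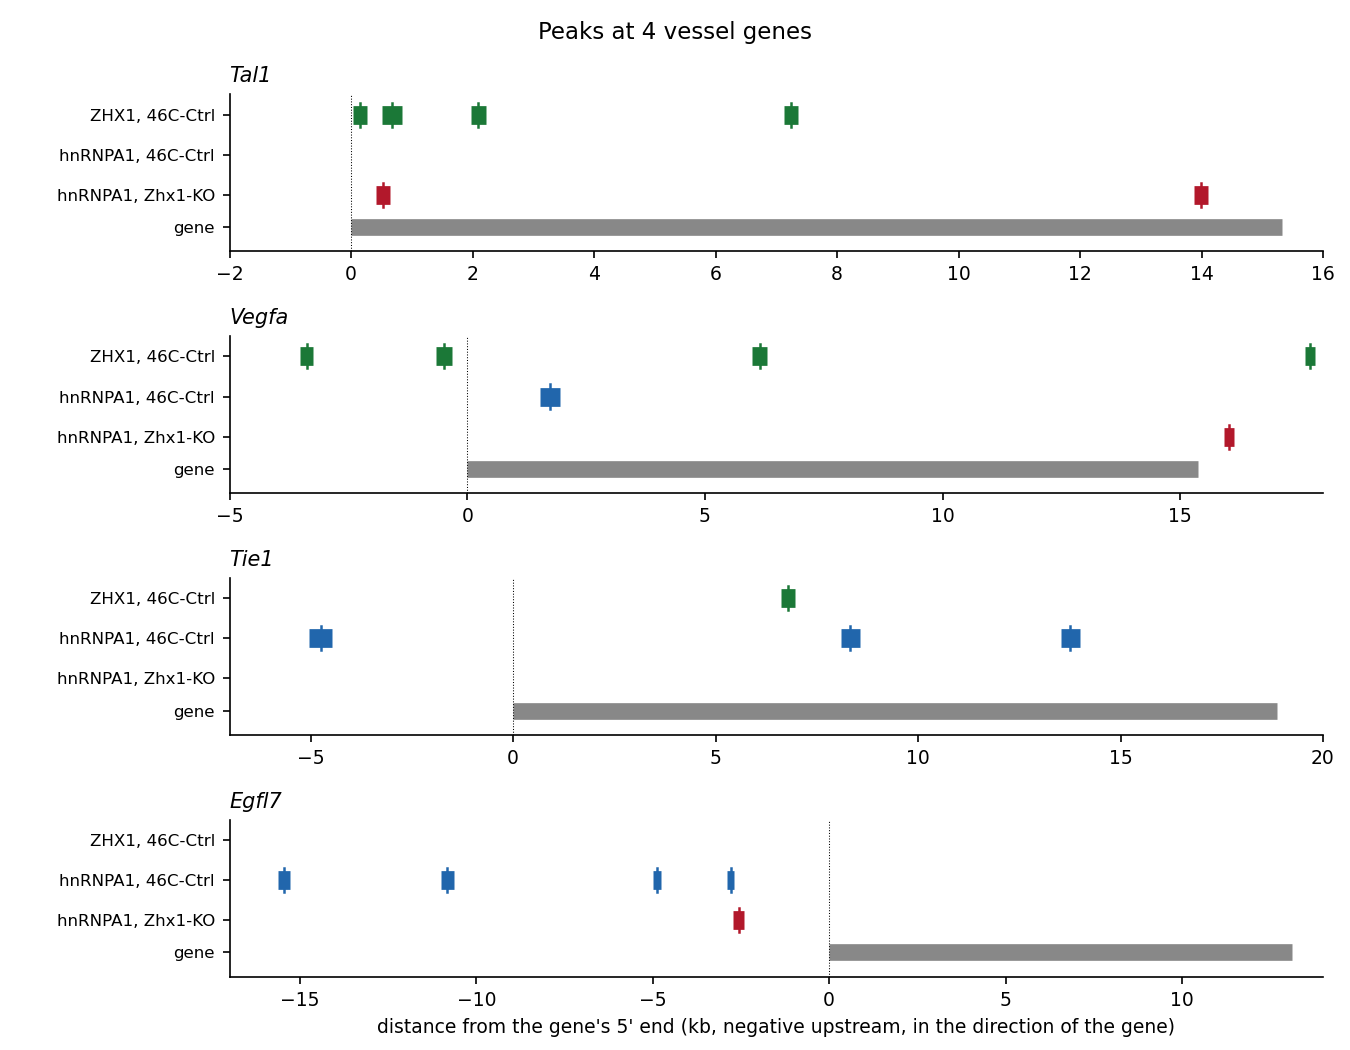
Peaks at Tal1, Vegfa, Tie1 and Egfl7, placed by distance from the 5' end of the gene in kb (horizontal axes), with 1 row per list and the gene as a grey bar. At Tal1 a ZHX1 block and a Zhx1-KO hnRNPA1 block stand above each other. At Egfl7 hnRNPA1 blocks of the 2 lines do so, and Tie1 has blocks of the control lists only.

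Of the 11 receptors, ZHX1 and Zhx1-KO hnRNPA1 peaks named 8 each (72.7%, 43.4 to 90.3) and control hnRNPA1 peaks 5 (45.5%, 21.3 to 72.0). All protein-coding symbols stood at 40.5% for ZHX1, 57.7% for Zhx1-KO and 31.2% for control hnRNPA1. Both hnRNPA1 shares of all symbols lie within the receptor intervals. Kdr, the main VEGF receptor and a marker of early mesoderm, had 3 ZHX1 peaks, 1 control hnRNPA1 peak and 4 in Zhx1-KO, and each was intergenic, 80.1 to 189 kb from its 5' end. Flt1, a VEGF receptor that also traps the ligand, had 4, 0 and 5. Flt4, the receptor for VEGF-C on lymphatic vessels, had 1, 0 and 3. None of the 3 VEGF receptor genes had a peak within 2 kb of a start site in any list.

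Nrp2, a co-receptor for VEGF and semaphorins, carried the most Zhx1-KO peaks of any member, with 9, beside 3 ZHX1 and 2 control hnRNPA1 peaks. All 9 lay upstream, 18.6 to 262 kb before the gene, and 4 of them sat in sequence of 937 to 10172 copies. Its relative Nrp1 had no named peak, although an hnRNPA1 peak of Zhx1-KO lay in its intron at chr8:128444955-128445363 under the name Mir1903, a microRNA gene. S1pr1, a receptor for the lipid S1P that steadies junctions, had 2, 2 and 7, and of the 7 Zhx1-KO peaks 4 were multi-copy.

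The receptors of the angiopoietin system differed in their lists. Tek, the angiopoietin receptor, had 2 ZHX1 peaks, 1 control hnRNPA1 peak and 3 in Zhx1-KO. Tie1, its co-receptor, had 1, 3 and 0, and it was the only one of the 34 genes named in both control lists and missing from the Zhx1-KO list. Among all protein-coding symbols 2.07% fell in that class. At equal list lengths 5 members did (Ets1, Runx1, Tek, Tie1 and S1pr1), with no share over all symbols available for that setting. By gene body 2 did (Tie1 and Cdh5, 5.88%), against 2.11% of all protein-coding genes. The Tie1 peaks with single-copy sequence all lay in introns of the gene (chr4:118471191-118490061, minus strand), where the ZHX1 peak at chr4:118483103-118483432 was 1.14 kb from the control hnRNPA1 peak at chr4:118481504-118481961. The remaining control peak at chr4:118494534-118495090, 557 bp and the widest member peak of its list, had a median of 619 copies.

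Aplnr, the apelin receptor, had 2 ZHX1 peaks, none for hnRNPA1 in control cells and 2 in Zhx1-KO. One of the latter, at chr2:85135069-85135300, was centred 1.04 kb upstream of the gene. Acvrl1, the endothelial type of BMP receptor, had 3 peaks, all from Zhx1-KO. They included the widest Zhx1-KO peak of the members, 615 bp at chr15:101126883-101127497, centred 1.33 kb upstream. Another, at chr15:101134604-101135009, lay 6.28 kb into the gene at the start of a shorter transcript. Eng, its co-receptor, had no peak in any list, with a territory of 11.4 kb, the smallest of the 34.

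The 6 junction and surface genes split between Cdh5 and the rest. Cdh5, which encodes VE-cadherin, had 6 ZHX1 peaks, 2 control hnRNPA1 peaks and 7 in Zhx1-KO. Only 1 of these 15 peaks lay in the gene (chr8:104101625-104144511, plus strand), the ZHX1 peak printed above, centred 1.05 kb from its 5' end. The others spread over the intergenic and intronic sequence upstream, up to 223 kb before the gene. One more control hnRNPA1 peak lay in a Cdh5 intron 9.09 kb from the 5' end, at chr8:104110486-104110943, but it carried the name Gm29682.

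Cldn5, the tight junction claudin of vessels, had 1 ZHX1 peak, 2 control hnRNPA1 peaks and 2 in Zhx1-KO, all upstream by 14.8 to 72.3 kb. Emcn, a sialomucin of the vessel surface, had 1, 0 and 2. Its Zhx1-KO peak at chr3:137341039-137341299 covered the transcription start and was the member peak closest to a 5' end, with its centre 0.102 kb away. Pecam1, an adhesion molecule and a common endothelial marker, had 0, 1 and 1, Plvap, which forms the diaphragms of fenestrae, 0, 0 and 1, and Esam, another adhesion molecule, none. An hnRNPA1 peak of Zhx1-KO lay 0.860 kb into Pecam1 at chr11:106749599-106749937 under the name of the neighbouring gene Milr1.

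By name, the 7 ligands and secreted proteins were the group in which hnRNPA1 named more genes than ZHX1 in control cells. ZHX1 peaks named 3 of the 7 (42.9%, 15.8 to 75.0), control hnRNPA1 peaks 6 (85.7%, 48.7 to 97.4) and Zhx1-KO peaks 6. The intervals of the first 2 shares overlap, and all protein-coding symbols stood at 40.5% and 31.2%. Among 8 other vessel ligands and secreted proteins the order was the opposite, with 3 named by ZHX1 and 1 by control hnRNPA1. By gene body, control hnRNPA1 lay at 4 of the 7 and ZHX1 at 3. Receptors (4 and 3) and junction and surface genes (3 and 2) then leaned the same way, and transcription factors (3 and 5) the other way. Vegfa, the main growth factor of vessels, had 8 ZHX1 peaks, the most of any member, against 1 control hnRNPA1 peak and 6 in Zhx1-KO. Vegfc, the lymphatic VEGF, had 3, 2 and 7. Angpt1, the ligand that activates TEK, had 3, 1 and 5.

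The other 4 genes of the group had no ZHX1 name. Angpt2, which can oppose ANGPT1, had 2 control hnRNPA1 peaks and 4 in Zhx1-KO, one of them at the start of a shorter transcript at chr8:18697848-18698071. Egfl7, a secreted protein of the vessel matrix, had 4 and 1. It was, with Tie1, 1 of the 2 members with more hnRNPA1 peaks in control cells than in Zhx1-KO, although the Zhx1-KO list is longer. Vwf, the clotting protein that endothelial cells store, had 1 and 2, and Apln, the ligand of APLNR, none in any list.

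Vegfa (chr17:46016993-46032369, minus strand) had ZHX1 peaks on both sides of its start. One was centred 0.494 kb upstream, at chr17:46032695-46033031, another 3.38 kb upstream and one more, at chr17:46026062-46026370, 6.15 kb into the gene in an intron. The control hnRNPA1 peak at chr17:46030419-46030828 was centred 1.75 kb into the gene, 1.87 kb from the nearest ZHX1 peak. No Zhx1-KO peak lay within the gene, and the nearest was 16 kb from its 5' end. The 4 control hnRNPA1 peaks of Egfl7 stood 2.80, 4.88, 10.8 and 15.5 kb upstream, and the Zhx1-KO peak 2.57 kb upstream. Nos3, the nitric oxide synthase of endothelium and the only enzyme, had 1 ZHX1 peak, 5.52 kb upstream, and no hnRNPA1 peak.

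**Figure D3:**
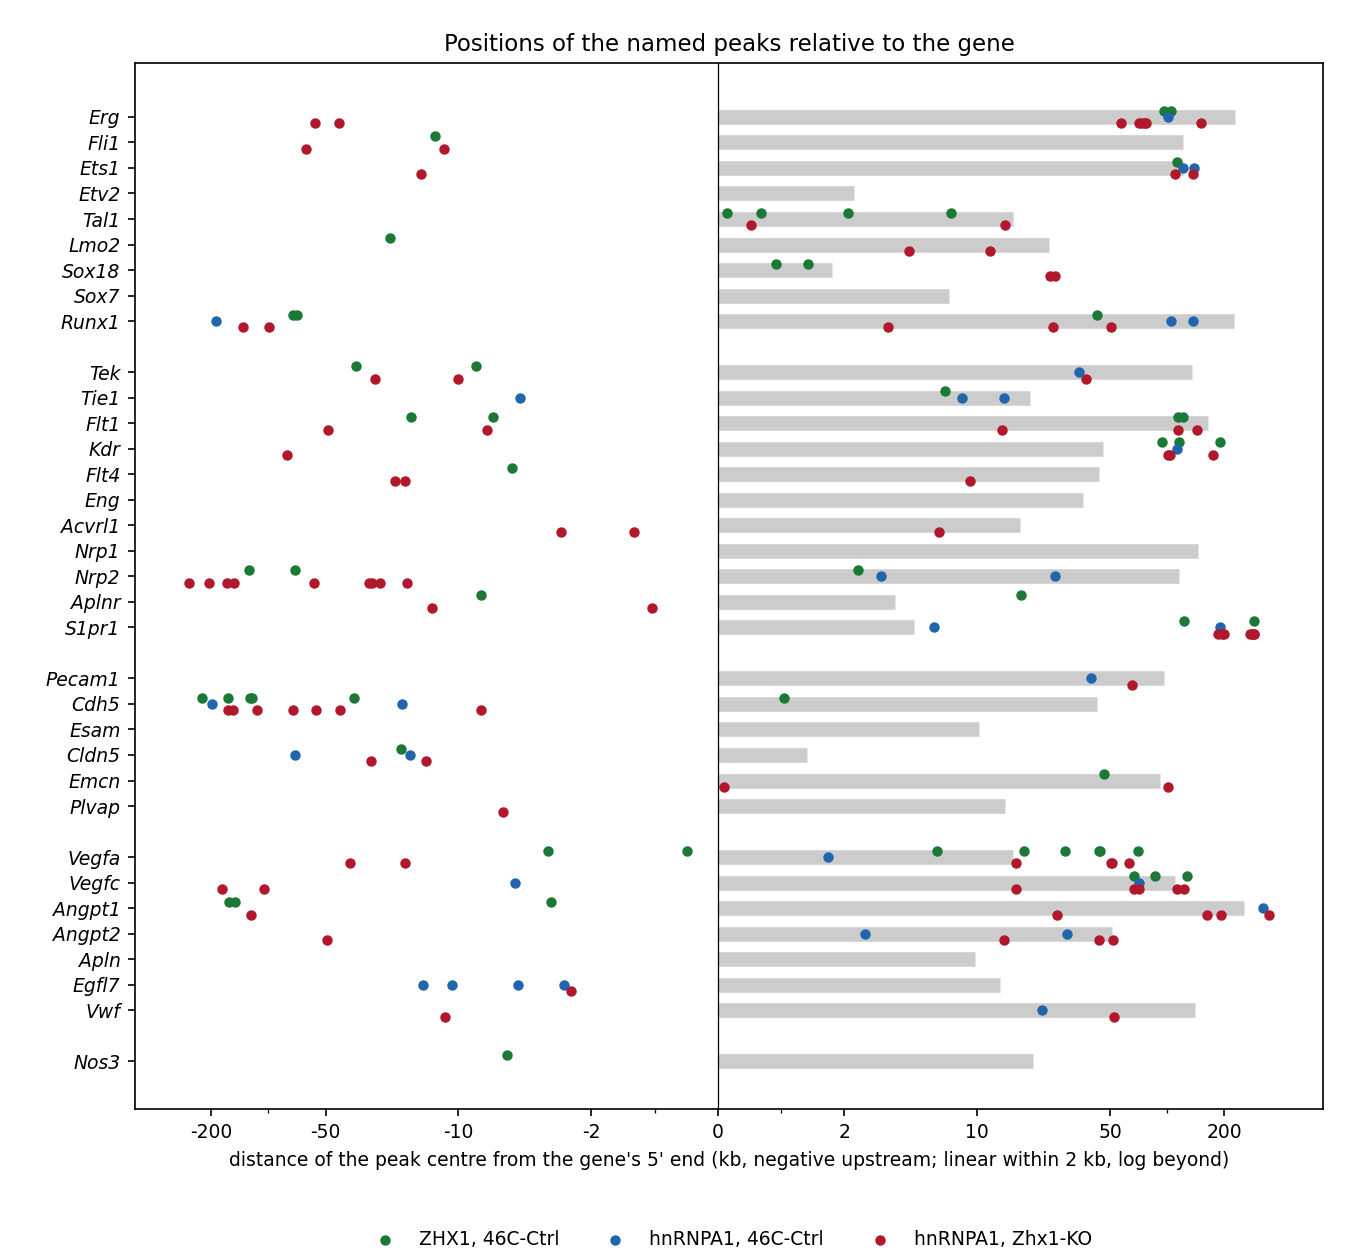
Distance of every named peak from the 5' end of its gene in kb (horizontal axis, negative upstream, linear within 2 kb and logarithmic beyond), with 1 row per gene, grey bars for the gene bodies and colours for the 3 lists. Few points lie close to 0, and the points of Cdh5 lie almost wholly upstream while those of Kdr lie far downstream or upstream.

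Most named peaks were far from the 5' ends. Within 2 kb of the 5' end lay 6 of 55 ZHX1 peaks, 1 of 31 control hnRNPA1 peaks and 4 of 98 Zhx1-KO peaks, and beyond 50 kb lay 24, 12 and 53. The median distance was 42.5 kb for ZHX1, 25.7 kb for control hnRNPA1 and 52.1 kb for Zhx1-KO. These distances had no counterpart over all peaks of the lists, so a difference from other genes was not tested. By annotation, 32 of the ZHX1 peaks were intergenic (58.2%, all ZHX1 peaks 48.4%), 21 were intronic and 2 were in coding sequence. Of the control hnRNPA1 peaks 15 were intergenic (48.4%, all 48.0%), 14 intronic and 2 in UTRs. Of the Zhx1-KO peaks 55 were intergenic (56.1%, all 50.1%), 38 intronic, 3 in UTRs and 2 in noncoding exons.

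When peaks were assigned by position, so that any peak in a gene or 2 kb around it counted whatever its name, 13 members had a ZHX1 peak (38.2%, 23.9 to 55), 14 a control hnRNPA1 peak (41.2%, 26.4 to 57.8) and 20 a Zhx1-KO peak (58.8%, 42.2 to 73.6). The shares of all protein-coding genes were 31.7%, 23% and 47.1%. By this rule the ZHX1 and Zhx1-KO shares of all genes lay within the intervals of the members, and the control hnRNPA1 share of all genes lay below. The members are also longer genes, with a median of 39.5 kb against 17.4 kb for all protein-coding genes. Per Mb of gene and flanks they held 10.5 ZHX1 peaks (all genes 10.2), 8.48 control hnRNPA1 peaks (6.54) and 19.4 Zhx1-KO peaks (21.5), so that for Zhx1-KO the order turned round. Within the genes themselves, 6 of 25 ZHX1 peaks, 4 of 19 control hnRNPA1 peaks and 13 of 44 Zhx1-KO peaks carried the name of another gene. Nrp2 was the main case, with 4 ZHX1 peaks, 1 control hnRNPA1 peak and 1 Zhx1-KO peak in its introns named for 4930487H11Rik.

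A peak within 2 kb of the start of any annotated transcript was found at 6 members for ZHX1 (17.6%, 8.35 to 33.5), 3 for control hnRNPA1 (8.82%, 3.05 to 23) and 9 for Zhx1-KO hnRNPA1 (26.5%, 14.6 to 43.1). The shares among all protein-coding genes were 12.1%, 6.77% and 21%, each within the interval of the members. The ZHX1 genes were Tal1, Sox18, Nrp2, Cdh5, Vegfa and Vwf. The control hnRNPA1 genes were Cdh5, Vegfa and Vwf, so that 3 of 34 had both (8.82%), against 1.53% of all protein-coding genes. Of all genes with a control hnRNPA1 start-site peak 22.6% also had ZHX1. At Cdh5 the peaks stood at the starts of different transcripts, the ZHX1 peak 1.05 kb and the control hnRNPA1 peak 9.09 kb from the 5' end. With the 5' end of the gene alone, control hnRNPA1 was left with 1 member. Cdh5 and Vegfa lacked a Zhx1-KO start-site peak, as did 62.5% of all genes with both control peaks. At Vwf the peaks were named for the neighbour Ano2 and stood at starts of short transcripts deep inside the gene. They were ZHX1 at chr6:125635919-125636268, control hnRNPA1 at chr6:125634451-125634815, with a median of 30 copies, and Zhx1-KO hnRNPA1 at chr6:125645579-125646111. The Zhx1-KO genes beside Vwf and Tal1 were Erg, Lmo2, Acvrl1, Aplnr, Pecam1, Emcn and Angpt2, none of which had a start-site peak in either control list. These 7 were 20.6% of the members, and 15.5% of all protein-coding genes had a start-site peak in Zhx1-KO alone. At Tal1 a ZHX1 and a Zhx1-KO hnRNPA1 peak stood at the start, with none for hnRNPA1 in control cells.

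**Figure D4:**
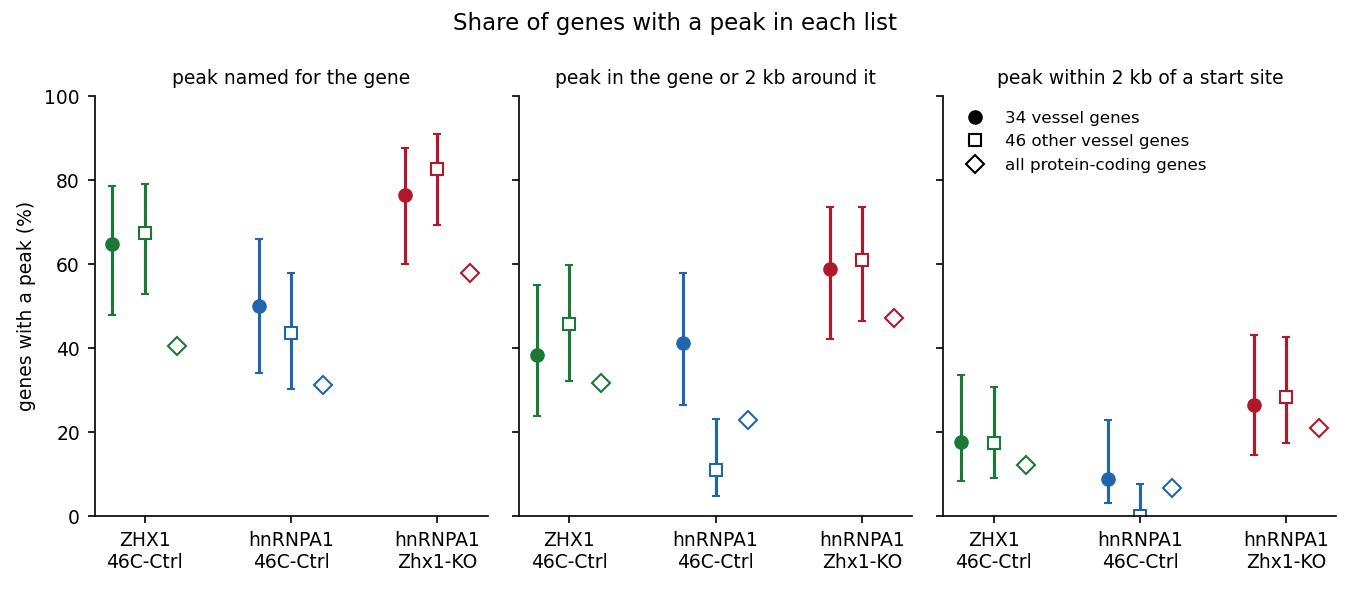
Share of genes with a peak (vertical axis, %) by name, by gene body and by start site, for the 34 genes (filled circles), 46 other vessel genes (squares) and all protein-coding genes (diamonds), with Wilson 95% intervals as bars. The 34 genes stand above all genes in each panel, and for control hnRNPA1 by gene body they stand at 41.2% while the other vessel genes stand at 10.9%.

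By class, 13 members were named in both control lists, against 20% of all protein-coding symbols, and 12 of them were also named in Zhx1-KO, against 17.9% of all symbols in all 3 lists. The 12 were Erg, Ets1, Runx1, Tek, Kdr, Nrp2, S1pr1, Cdh5, Cldn5, Vegfa, Vegfc and Angpt1. The 13 were 38.2% of the members. A further 8 had ZHX1 and Zhx1-KO hnRNPA1 names, namely Fli1, Tal1, Lmo2, Sox18, Flt1, Flt4, Aplnr and Emcn (23.5%, all symbols 14.2%). Pecam1, Angpt2, Egfl7 and Vwf had hnRNPA1 names from both lines without ZHX1 (11.8%, all symbols 7.64%). Only 2 members, Acvrl1 and Plvap, were named in the Zhx1-KO list alone (5.88%), a class that held 18% of all symbols.

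The names that ZHX1 and control hnRNPA1 shared did not come from overlapping peaks. No member peak of ZHX1 overlapped a control hnRNPA1 peak by even 1 bp. With 0 of 55 ZHX1 peaks the data allow a share of up to 5.45%, and with 0 of 31 hnRNPA1 peaks up to 9.68%. Over the whole lists 2.60% and 4.12% overlapped, so a share as low as that of the whole lists could not be told from 0 at these numbers.

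Neighbouring peaks were more common. Of the member ZHX1 peaks, 10 lay within 5 kb of a control hnRNPA1 peak (18.2%, all ZHX1 peaks 11.5%), and of the control hnRNPA1 peaks 7 lay within 5 kb of a ZHX1 peak (22.6%, all 17.4%). The closest were at Nrp2, where a ZHX1 peak at chr1:62705524-62705751 and a control hnRNPA1 peak at chr1:62706228-62706539 in an intron near the start were 0.477 kb apart. The gaps were 1.14 kb at Tie1, 1.62 kb at Kdr, 1.71 kb at Cldn5, 1.87 kb at Vegfa, 3.42 kb at Erg and 3.62 kb at Vegfc. In an Nrp2 intron all 3 lists had a peak within a stretch from 62785674 to 62787260 of chromosome 1, none of which overlapped and all of which were named for 4930487H11Rik.

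Between the hnRNPA1 lists of control and Zhx1-KO, 1 of 31 control peaks (3.23%, 0.572 to 16.2) and 1 of 98 Zhx1-KO peaks (1.02%, 0.180 to 5.56) overlapped, the pair at Egfl7. The shares over the whole lists were 4.41% and 1.26%. At Vegfc a control peak at chr8:54148066-54148559 and a Zhx1-KO peak at chr8:54148749-54149113 lay 0.190 kb apart in an intron, in sequence of 435 and 541.5 copies. Egfl7 was the only one of the 17 members named by hnRNPA1 in control cells whose peak there overlapped a Zhx1-KO peak.

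ZHX1 peaks of control cells overlapped Zhx1-KO hnRNPA1 peaks at 4 places, which is 7.27% (2.86 to 17.3) of the ZHX1 and 4.08% (1.60 to 10.0) of the Zhx1-KO peaks, against 4.42% and 1.99% over the whole lists. Besides Tal1 these included an intergenic place 286 kb from S1pr1 at chr3:115428632-115428981, with 652 copies, and an intron of Vegfc at chr8:54144163-54144447, with 905.5 copies. The Tal1 pair was the only one in single-copy sequence. A short gap without overlap was found at Cdh5, where a ZHX1 peak at chr8:103937806-103938033 and a Zhx1-KO peak at chr8:103938201-103938604 were 0.168 kb apart.

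Of all hnRNPA1 peaks at the members, 98 of 129 came from Zhx1-KO (76.0%, 67.9 to 82.5). Over both whole lists the share was 77.9%, which lies within the interval of the members. By role it was 80.0% for transcription factors (62.7 to 90.5) and for receptors (66.2 to 89.1), 72.2% for junction and surface genes (49.1 to 87.5) and 69.4% for ligands and secreted proteins (53.1 to 82.0). None of these intervals excludes the share of the whole lists. They are wide, so a role with a different balance of the 2 lines could not be told apart at these numbers.

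**Figure D5:**
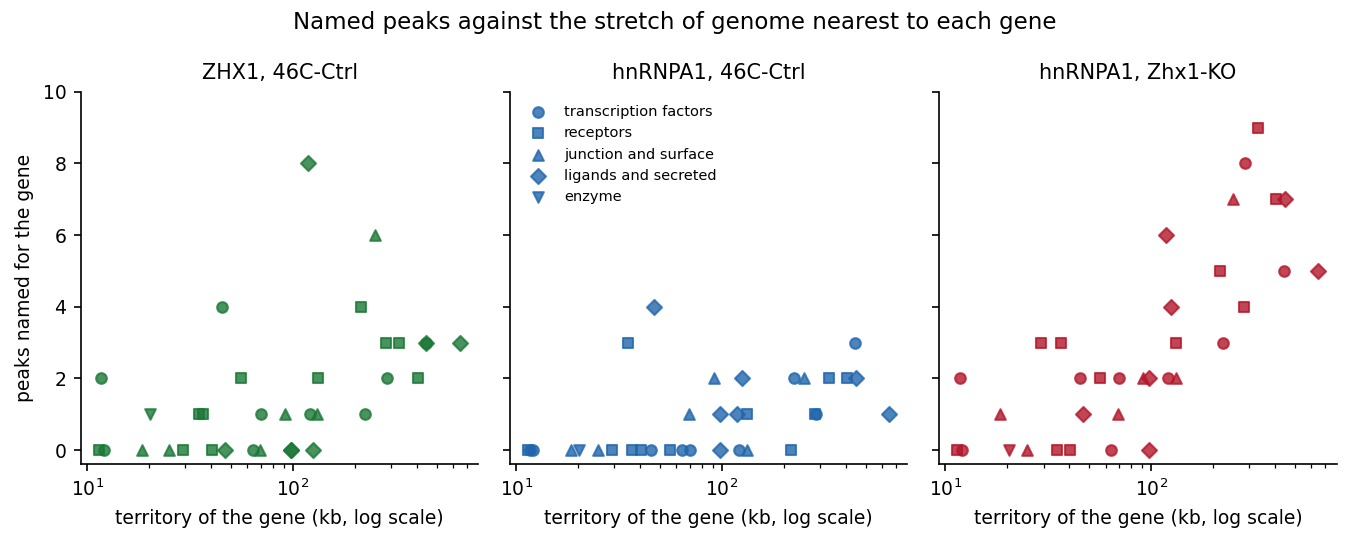
Peaks named for each of the 34 genes (vertical axis) against the length of the gene's territory in kb (horizontal axis, log scale), with 1 panel per list and marker shapes for roles. Genes with wide territories carry more Zhx1-KO peaks, and Vegfa in the ZHX1 panel (8 peaks, 118 kb) and Egfl7 in the control hnRNPA1 panel (4 peaks, 46.5 kb) stand high for their length.

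The control hnRNPA1 peaks at these genes were wide. Their median width was 334 bp, against 257 bp for all peaks of that list, and 20 of 31 were wider than 300 bp (64.5%, 46.9 to 78.9; all 32.1%). ZHX1 member peaks had a median of 255 bp (all 259 bp) and Zhx1-KO member peaks of 264.5 bp (all 271 bp). The widest ZHX1 peak of the members, 573 bp at chr16:92896808-92897380, lay 70.9 kb upstream of Runx1.

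ZHX1 peaks at the members lay less often in repeated sequence. Multi-copy peaks, those whose 32-base words occur in the assembly with a median of at least 2 copies, were 4 of 55 (7.27%, 2.86 to 17.3), against 25.3% of all ZHX1 peaks. For control hnRNPA1 it was 5 of 31 (16.1%, 7.09 to 32.6; all 24.5%) and for Zhx1-KO 22 of 98 (22.4%, 15.3 to 31.7; all 31.4%). GC content differed little, with a median of 47.8% for ZHX1 (all 46.3%), 48.4% for control hnRNPA1 (all 46.7%) and 49.9% for Zhx1-KO (all 48.3%).

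Short motifs occurred at shares close to those of the whole lists. TAGGG was present in 16 of 55 ZHX1 peaks (29.1%, 18.8 to 42.1; all 34.5%), 14 of 31 control hnRNPA1 peaks (45.2%, 29.2 to 62.2; all 35.0%) and 39 of 98 Zhx1-KO peaks (39.8%, 30.7 to 49.7; all 35.3%). The ETS core was present in 25 ZHX1 peaks (45.5%, 33 to 58.5; all 35.6%), 10 control hnRNPA1 peaks (32.3%, 18.6 to 49.9; all 35.8%) and 42 Zhx1-KO peaks (42.9%, 33.5 to 52.7; all 36.4%). CCAAT was present in 38.2%, 41.9% and 39.8% of the member peaks, against 36.4%, 36.3% and 38.2% of all. Each interval of the members contains the share of its whole list.

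Another 46 vessel genes, listed for comparison, gave similar shares by name, and by gene body except for control hnRNPA1. ZHX1 peaks named 31 of them (67.4%, 53 to 79.1), control hnRNPA1 peaks 20 (43.5%, 30.2 to 57.8) and Zhx1-KO peaks 38 (82.6%, 69.3 to 90.9). By gene body, ZHX1 lay at 45.7% of the 46 (members 38.2%) and Zhx1-KO hnRNPA1 at 60.9% (members 58.8%). A control hnRNPA1 peak in the gene or 2 kb around it was found at 5 of the 46 (10.9%, 4.73 to 23), where the 34 members had 14 (41.2%), and at a start site at none of the 46, which allows up to 6.52%. For control hnRNPA1 by gene body, the 34 genes thus stood above the 23% of all genes. The 46 stood below it, although their interval still contains it. The 46 are shorter genes, with a median of 13.8 kb. Per Mb of gene and flanks they held 2.75 control hnRNPA1 peaks, still below the members and all genes, but 12.6 ZHX1 and 21.6 Zhx1-KO peaks, above the members in both. Overlapping peaks were found at S1pr3, another S1P receptor, with 89 bp between ZHX1 and control hnRNPA1 in single-copy intergenic sequence. ZHX1 and Zhx1-KO hnRNPA1 peaks overlapped at Nr2f2, a vein factor, in intergenic sequence of 10848 and 11007.5 copies. At Tjp1, a tight junction scaffold, they overlapped in sequence of 856 and 572 copies, under the name BC046251. At Jam3, a junction molecule, single-copy peaks of these lists shared 13 bp.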

How the data were processed

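Reads had been trimmed by the authors (cutadapt 1.18), aligned to GRCm38, also called mm10 (Bowtie2 2.3.5.1), and cleared of duplicates and of reads with more than 1 position. BWA 0.7.12-r1039 and deepTools 3.3.0 also stand in the submitters' processing notes. Which peak caller and threshold were used, and whether with the inputs, is not given in the sources used here. The deposited lists hold, for 1 library each, the positions of peaks with a gene name, and no score, signal or count.

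Peaks were matched to members by the deposited name, and also by position on GENCODE M21 (gene body with 2 kb to either side, or 2 kb around the start of any transcript). Overlap meant at least 1 bp. Distances run from the peak centre, and gaps between peaks from edge to edge. Territory was the length of genome whose nearest curated RefSeq start belongs to the gene. Copy number was the median count in the assembly of a peak's 32-base words on both strands, and 2 or more was called multi-copy. Motifs were searched on both strands.

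Members, roles and the comparison list were chosen with earlier results of these data known, so no test was made over them. All members were named in the text. Positions were given for peaks within 2 kb of a start, for overlapping peaks and for the widest peak of each list. The 7 sequences, from single-copy overlapping peaks and from 3 peaks within 2 kb of a 5' end, were picked after their values were seen, and nearer peaks at Emcn, Tal1, Pecam1 and Sox18 were not printed. One overlapping place is not reported here. Other positions, such as those of neighbouring peaks, were also picked after their values were seen. Group values come from 1 library each, and samples were grouped by title. The scripts ran on Python 3.11.15 with pandas 2.3.3, numpy 2.4.6, matplotlib 3.10.9 and scipy 1.17.1, and the overlap step was tested on simulated peaks.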

Additional observations from a re-analysis of the deposited data

How the results depend on the processing

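No paired analysis was possible because each group had 1 library. With the widest 14662 peaks of each list, ZHX1 and Zhx1-KO hnRNPA1 member peaks fell to 32 and 27. Zhx1-KO then named 13 members, 1 of them a transcription factor, 5 receptors and 2 junction and surface genes. Members named in both control lists but not in Zhx1-KO rose from 1 to 5, start sites with a Zhx1-KO peak fell to 3, and overlaps were 1 for ZHX1 with Zhx1-KO and 0 for control with Zhx1-KO hnRNPA1. No shares over all genes were available at this setting, so these moves cannot be set against those of other genes. This setting changed length and width together, since the smallest peak kept was 333 bp for Zhx1-KO and 223 bp for control hnRNPA1. With peaks over 300 bp only, the lists held 17, 20 and 42 member peaks, ZHX1 named 13 members (4 receptors, 1 ligand or secreted protein), 5 members were in both control lists, Zhx1-KO named 3 junction and surface genes and stood at 3 start sites, and overlaps were again 1 and 0. With single-copy peaks only, 1 of the 4 overlaps of ZHX1 with Zhx1-KO was left. Control hnRNPA1 then named 15 members, and 11 members were in both control lists. By gene body instead of name, ZHX1 had 26 and Zhx1-KO 48 member peaks, ZHX1 lay at 13 members (3 receptors, and 0 for the enzyme), Zhx1-KO at 2 junction and surface genes, and 2 members were in both control lists only. With edges up to 1 kb apart, 1 ZHX1 peak met control hnRNPA1, 7 met Zhx1-KO, and 2 control hnRNPA1 peaks met Zhx1-KO. Requiring an overlap of 50% of either peak left 0 for the last pair. Start sites within 5 kb gave 9 members for control hnRNPA1, and the gene's 5' end alone gave 1, and 5 for Zhx1-KO. The alternatives by role were chosen after seeing the data. Read depth and threshold are unknown and limit every comparison between lists.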
